A study of Caenorhabditis elegans with 2 samples.

Results

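The genes described here build the contractile filaments of Caenorhabditis elegans muscle, and 10 of them were taken by name from the 19973 protein-coding genes of the annotation (Ensembl release 115, assembly WBcel235). Thick filaments of this worm are bundles of myosin heavy chains laid on a core of paramyosin. Thin filaments are actin carrying tropomyosin and the troponins, which make contraction depend on calcium. Giant proteins of immunoglobulin and kinase domains tie both into the sarcomere. The thick filament genes were unc-54 and myo-3, the myosin heavy chains of body wall muscle, myo-1 and myo-2, those of the pharynx, and unc-15, paramyosin. The thin filament genes were lev-11 (tropomyosin), tnt-2 (a troponin T) and unc-27 (a troponin I), and the giant protein genes were unc-22 (twitchin) and unc-89 (the obscurin-like protein of the M-line).

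The series set out to find the forms of 3′ untranslated regions (3′ UTRs), the part of a messenger RNA between its stop codon and its poly(A) tail. Total RNA of N2 worms of mixed stages (N2 is the wild type used in the laboratory) was copied from an oligo-dT primer, amplified with 1 forward primer per transcript, cloned, and read by pyrosequencing in a run of 6432 minipools, the mixed transformants of single cloning reactions. A second run of 49152 barcoded products and 5952 further minipools is described in the labels and has no list of its own here. The list analysed is filed under the first run, and whether it also holds reads of the second cannot be told from the sources used. The data are 1 list of 4818 genomic intervals without read count, strand or gene, so there is no replicate, the read depth is unknown, and no test between groups was made. Bracketed ranges after shares are exact Clopper-Pearson 95% intervals and cover counting error only. Whole worms were used, so muscle RNA was read together with that of all other tissues.

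An interval was given to a gene when, after a local correction of the file's numbering, it covered at least 10 nt of the gene's stop codon and 3′ UTR (a 3′ interval), or otherwise at least 10 nt of its coding exons (a coding interval). The 10 genes held 26 of the 4818 intervals (0.540%), and none of the 26 touched the stop codon, 3′ UTR or coding exons of another gene by this rule. The 26 were 9 3′ intervals in 9 genes and 17 coding intervals in 8 genes, with both kinds in 7 genes. Positions are given in the numbering of the list, for which the sources used here name no build. Each start given is the first base of the interval, the base after the start value in the list. Distances were taken after the correction, which was largest for the genes on the X chromosome (62 nt at tnt-2 and unc-27, 77 nt at myo-2). Other ways of finding it moved the edges of tnt-2 and unc-27 by up to 12 nt and those of the other members with a 3′ interval by up to 5 nt.

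A 3′ interval was present for 9 of the 10 genes (90%, 55.5 to 99.7), against 20.7% of all protein-coding genes (4130 of 19973). The members were chosen with earlier results of these data known, so their share and its range are not an independent estimate. The longest annotated 3′ UTR of every member was at least 150 nt. A 3′ interval was present for 30.7% of all genes with 150 to under 300 nt and 31.9% of those with 300 to under 900 nt. It was present for 19.3% of those with 1 to under 150 nt. The set of genes that received a primer was not known here, so none of these shares separates which genes were targeted from which were recovered. The member without a 3′ interval was unc-22, whose longest annotated 3′ UTR of 954 nt exceeds the longest interval of the whole file, 839 nt. Intervals were found at other genes of this kind, though not necessarily over the full length. Of the 600 genes with an annotated 3′ UTR of at least 900 nt, 184 had a 3′ interval (30.7%, 27 to 34.5), close to the 31.9% of genes with 300 to under 900 nt. Why unc-22 had none was not tested.

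Among thick filament genes, unc-54 (WBGene00006789), the major body wall myosin, had a 3′ interval of 377 nt on chromosome I, from 14855995 to 14856371. It began 200 nt upstream of the stop codon end, within the last of 9 exons, and ran 176 nt past it, to 104 nt before the annotated end. The interval of myo-3 (WBGene00003515), the minor body wall myosin, lay in the same way, on chromosome V from 12226870 to 12227155. Of its 286 nt, 208 nt lay upstream of the stop codon end and 77 nt followed it, and the end lay 74 nt before the annotated one. In both body wall myosins more of the interval was coding sequence than 3′ UTR.

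The 2 pharyngeal myosins had intervals that started close to the stop codon. That of myo-1 (WBGene00002348, chromosome I, 7259110 to 7259488) started 25 nt upstream of the stop codon end and ran 353 nt past it. The annotated 3′ UTR of myo-1 is 518 nt long, so the interval ended 165 nt before the annotated end. For myo-2 (WBGene00003514, chromosome X, 12474855 to 12475012) the edge lay 14 nt upstream of the stop codon end and 143 nt followed it, only 35.6% of the annotated 402 nt. The 4 heavy chain genes thus differed in the length after the stop codon from 77 to 353 nt, with myo-1 the longest, and each ended before the annotated end.

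The paramyosin gene unc-15 (WBGene00006754) had the longest sequence after the stop codon among the members, 413 nt, in an interval of 440 nt (chromosome I, 7376881 to 7377320). In the transcript model used here its annotated 3′ UTR holds an intron of 65 nt, and the interval nearly matched the exon before that intron. The 5′ edge lay 0 nt from the start of that exon and the 3′ edge 5 nt past its end. With the other ways of finding the correction both distances stayed at 0 to 5 nt. All 413 nt after the stop codon were annotated as 3′ UTR, so the 5 nt past this exon belong to the 3′ UTR of another model. In the model used, the 278 nt from the interval to the annotated end are the rest of this intron and the last exon. An exon edge and an end of the transcript therefore cannot be told apart here. An intron in the annotated 3′ UTR was rare, in 51 of 3620 genes (1.41%), and in 6 of these 51 the interval ended within 5 nt of an exon end. Over all 3620 genes, 0.166% ended so.

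Of the thin filament genes, tnt-2 and unc-27 ended within 20 nt of the annotated end. The interval of tnt-2 (WBGene00006587, chromosome X, 8721474 to 8721921, 448 nt) was the longest of all the members on the genome. Without the intron it holds, it would be shorter than those of unc-15 (440 nt) and unc-89 (429 nt). It started 219 nt upstream of the stop codon end, in exon 5 of 6, held an intron of 46 nt, and ran 228 nt past the stop codon, 10 nt beyond the annotated end. That of unc-27 (WBGene00006764, chromosome X, 8790319 to 8790564, 246 nt) started 36 nt upstream of the stop codon end and ran 209 nt past it, 5 nt beyond the annotated end. Under the other corrections these differences ranged from 10 to 22 nt for tnt-2 and from −7 to 5 nt for unc-27. Both genes lie close together on the X chromosome and share the correction, so the 2 differences are not independent.

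The tropomyosin gene lev-11 (WBGene00002978) makes several proteins from one locus, and its 20 annotated coding transcripts use 4 stop codons. Its 3′ interval (chromosome I, 14621420 to 14621586, 167 nt) held the stop codon shared by 10 of these transcripts. It ran from 82 nt upstream of the end of that stop codon to 84 nt after it, 25.1% of the shortest annotated 3′ UTR at this stop codon, 335 nt, and ended 251 nt before that end. Some models of this group stop at the stop codon itself, and measured from the nearest end of any lev-11 transcript the edge lay 84 nt downstream. None of the other 3 stop codons, used by 7, 2 and 1 transcripts, lay in an interval. Their longest annotated 3′ UTRs, of 1259, 1489 and 2491 nt, extend to this region, however. All 167 nt of the interval were stop codon or 3′ UTR of some lev-11 transcript, including 80 nt that are coding in others. Which stop codon its products used therefore cannot be told, and the lengths given hold for the stop codon inside it.

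The 3′ interval of unc-89 (WBGene00006820, chromosome I, 4090392 to 4090820, 429 nt) held the stop codon used by its longest form. It started 38 nt upstream of the end of that stop codon and ran 390 nt past it, to 67 nt before the annotated end. That stop codon is shared by 12 of 16 annotated coding transcripts. The other stop codon, used by 4 transcripts that end earlier in the gene, lay in no interval. unc-22 (WBGene00006759, chromosome IV) had a single interval, from 11974493 to 11974621, which was coding.

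**Figure D1:**
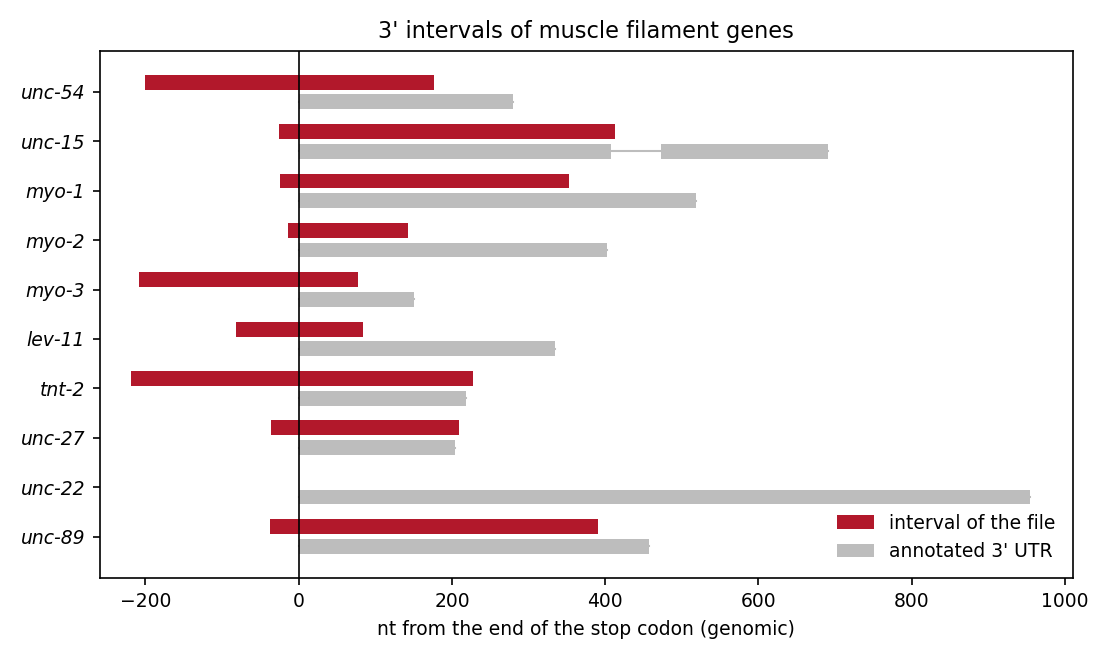
Position of the 3′ interval (red, upper bar) and the annotated 3′ UTR (grey, lower bar, a thin line for an intron) of each of the 10 genes, in nt from the end of the stop codon. The red bars of unc-54, myo-3, lev-11 and tnt-2 reach 82 to 219 nt of genomic sequence into the coding side, with an intron included in tnt-2. Of the 9 red bars, 7 end more than 20 nt short of the grey ones, and unc-22 has no red bar.

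The 9 genes with a 3′ interval were then set beside all 3625 genes in which such an interval held a stop codon. The median interval was 377 nt long in the 9 members and 198 nt in all genes (interquartile range 145 to 282 nt). Part of the difference lay before the stop codon. After it, the members' median was 209 nt, with a range of 77 to 413 nt, against 150 nt in all genes, whose interquartile range was 102 to 231 nt. unc-15, unc-89 and myo-1 lay among the longest, since only 3.42%, 4.61% and 7.45% of all genes had as much or more sequence after the stop codon. At the other end, 85.7% of genes had as much or more than lev-11 and 89.8% as much or more than myo-3. The 3 genes with over 300 nt after the stop codon all lie on chromosome I, as do unc-54 and lev-11. Without the 5 members on chromosome I the median length of the 3′ intervals was 266 nt, and the median length after the stop codon was 176 nt.

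An end more than 20 nt upstream of the annotated end was found in 7 of the 9 members (77.8%, 40 to 97.2), against 24.4% of all 3620 genes with an annotated 3′ UTR at the same stop codon and 28.1% of those whose interval covered the 3′ end of 1 gene only. The members have long annotated 3′ UTRs, with a median of 335 nt against 158 nt in all genes, and upstream ends were more frequent the longer the annotated 3′ UTR. The share was 6.6% of genes with under 150 nt, 22% with 150 to under 300 nt and 67% (63.6 to 70.3) with at least 300 nt, and 40.5% over all with at least 150 nt, the range that holds all 9 members. Of the members, 2 of the 4 with 150 to under 300 nt (unc-54 and myo-3, and not tnt-2 and unc-27) and all 5 with at least 300 nt ended upstream. For these 5, unc-15, myo-1, myo-2, lev-11 and unc-89, a share of 100% has an interval of 47.8 to 100% that includes the 67% of all such genes. The other 2 (22.2%, 2.81 to 60) ended within 20 nt of the annotated end, against 61.5% of all genes. None of the 9 ended more than 20 nt downstream (upper limit 33.6%), against 14% of all genes. With correction windows of 3 Mb the end of tnt-2 lay 22 nt downstream, which made 1 of 9 downstream (11.1%, 0.281 to 48.2) and left 1 of 9 within 20 nt. The sources used here do not say whether the annotation drew on these clones.

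**Figure D2:**
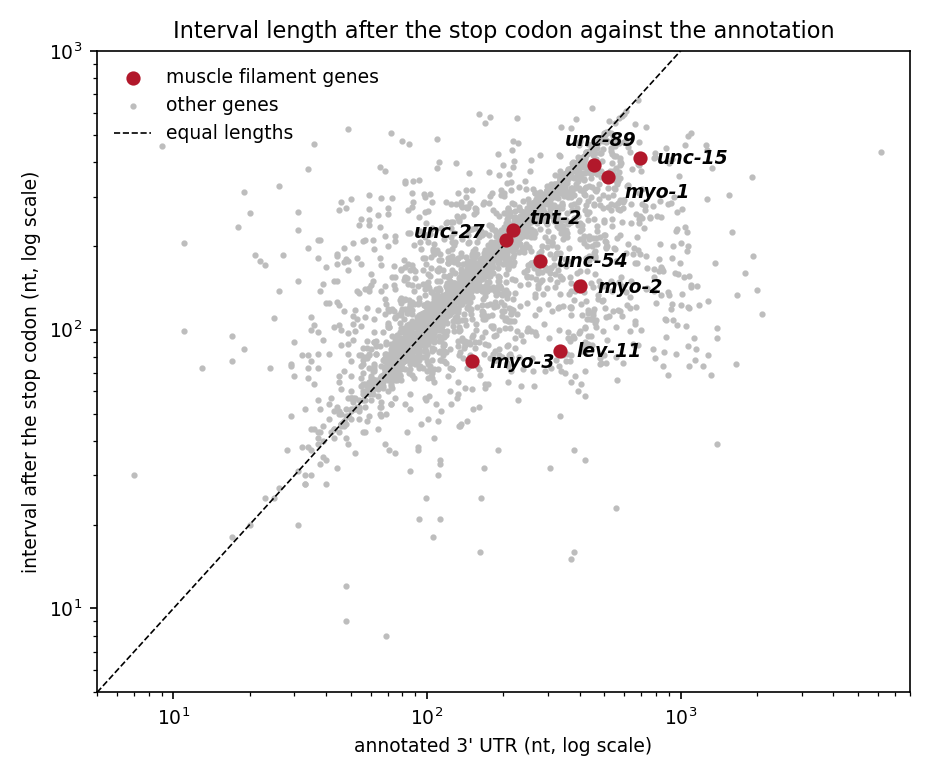
Length of the interval after the stop codon (vertical axis, nt, log scale) against the length of the nearest annotated 3′ UTR at the same stop codon (horizontal axis, nt, log scale), for 9 muscle filament genes (red, named) and all other genes (grey), 3620 in total; the dashed line marks equal lengths. tnt-2 and unc-27 sit on the line, and lev-11 (84 of 335 nt) and myo-2 (143 of 402 nt) lie farthest below it among the 9.

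The 5′ edges fell into groups as well. In 5 of the 9 members (55.6%, 21.2 to 86.3) the interval started up to 60 nt upstream of the stop codon end, at 14 to 38 nt, against 87.7% of all genes with such an interval, whose median was 33 nt. The other 4 started 82 nt (lev-11), 200 nt (unc-54), 208 nt (myo-3) and 219 nt (tnt-2) upstream, and only the value of tnt-2 includes an intron, of 46 nt. Several edges lay at the start of an exon. The distance was 0 nt in lev-11 and unc-15, 2 nt in unc-27, 7 nt in myo-3 and 9 nt in unc-54. Edges within 10 nt of an exon start were thus found in 5 of 9 members (4 or 5 under the other corrections), against 7.54% of all 3620 genes, and within 5 nt in 3 of 9 (2 to 4), against 4.67%. Among the 447 genes whose edge lay more than 60 nt upstream, 151 (33.8%, 29.4 to 38.4) started within 10 nt of an exon start, as did 3 of the 4 such members. Under the other corrections the distance ranged from 0 to 5 nt in unc-15, 0 to 4 nt in lev-11, 5 to 9 nt in unc-54 and 2 to 14 nt in unc-27, and it was 7 nt throughout in myo-3.

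Intervals inside coding exons were frequent in these genes. At least 1 was present in 8 of 10 members (80%, 44.4 to 97.5), against 3.85% of all protein-coding genes (769 of 19973). Long genes offer more room for such intervals, so they were also counted per length of coding sequence. The members held 17 in 76155 nt of coding sequence, 22.3 per 100000 nt (exact Poisson 95% interval 13.0 to 35.7, which counts intervals of 1 gene as independent), against 3.68 per 100000 nt (3.44 to 3.92) over all genes. Without unc-89 the members' value was 19.3 per 100000 nt. How abundant the messengers were was not measured in these data, and its part in this difference was not tested. As the members were chosen with earlier results of these data known, neither their share nor their count per length is an independent estimate.

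Most of the coding intervals lay towards the start of the protein. Of the 17, 14 (82.4%) had their middle in the first 50% of the coding sequence, and without unc-89 8 of 10 did, against 347 of all 875 intervals of the file that lay in coding exons and at no 3′ end (39.7%). The members' median position was 20.1% of the way from start to stop codon, against 60.5% for all 875. After splicing, the median distance from the members' coding intervals to the end of the stop codon was 5559 nt, against 542 nt for all 875. This distance is bounded by the length of the coding sequence, whose median was 5907 nt for the members' intervals and 1839 nt for all 875, so it does not compare position alone. Without unc-89 the remaining 10 had a median position of 18.8% and a median distance of 2276.5 nt. Intervals of 1 gene share their source and are not independent, so the genes are given singly below.

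In unc-54, 3 coding intervals were spread over the first part of the protein of 1963 residues. They encode residues 69 to 111 (chromosome I, 14862495 to 14862624), 512 to 570 (14860509 to 14860735) and 917 to 1013 (14859180 to 14859469). The first and the second lie in the part that forms the myosin motor domain, and the second also held an intron of 52 nt. In myo-3 the only coding interval (chromosome V, 12232957 to 12233071, 115 nt) encodes residues 47 to 85 of 1969, near the N terminus, and began 3 nt from an exon edge. No coding interval was found in the pharyngeal myosins myo-1 and myo-2, although their coding sequences, 5814 and 5841 nt, are nearly as long as those of unc-54 and myo-3, 5889 and 5907 nt. With 3, 1, 0 and 0 intervals in 4 genes, a difference between body wall and pharyngeal myosins cannot be judged.

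The 2 coding intervals of unc-15 adjoin each other in the spliced message. They lie at 7381638 to 7381831 and 7381361 to 7381568 on chromosome I and encode residues 40 to 87 and 88 to 142 of 872. The 69 nt between them on the genome correspond to 1 intron of 69 nt, and each held a further intron, of 46 and 47 nt. All 4 edges lay 2 to 4 nt from exon edges. Under the other corrections the 5′ edge lay 2 to 7 nt from an exon start in the first and 0 to 3 nt in the second. As the file gives no block structure, whether the introns inside an interval were read as sequence or spanned by a spliced alignment cannot be told apart.

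Each of the thin filament genes held 1 coding interval. In lev-11 it lay at 14630666 to 14630768 of chromosome I, 103 nt that encode residues 16 to 50 of the 284-residue tropomyosin, and 9 of the 20 coding transcripts contain them. The one in tnt-2 covered residues 78 to 133 of 428 (chromosome X, 8722762 to 8722930). For unc-27 it covered residues 142 to 180 of 242 (chromosome X, 8789949 to 8790062), 191 nt of spliced sequence upstream of the stop codon end. The 5′ edges of all 3 lay 1 to 3 nt from an exon edge, and under the other corrections at up to 9 nt from an exon start in tnt-2 and up to 10 nt in unc-27. Over the 10 genes, 6 of 17 coding intervals (35.3%, 14.2 to 61.7) started within 5 nt of an exon start, against 14.9% (12.6 to 17.4) of all 875. With correction windows of 3 Mb it was 4 of 17 (23.5%, 6.81 to 49.9), against 14% of all. Both ranges for the members include the corresponding share over all. At the 3′ edge the shares were 17.6% and 17.5%.

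unc-89 held 7 coding intervals, the third highest number of all genes, after ttn-1, the worm's titin-like gene, with 14, and F49E2.5 with 8. Only 1 gene each had 7, 8 or 14, and 19204 genes had none. In unc-89, 5 of the 7 lay in exon 20 of its longest form, a protein of 8081 residues, within 4055403 to 4056983 of chromosome I. They encode residues 1267 to 1374, 1387 to 1469, 1510 to 1556, 1596 to 1660 and 1694 to 1793, and the gaps between neighbours were 37, 122, 119 and 101 nt with no intron in them. The other 2 encode residues 3136 to 3190 (4062835 to 4062995) and 4546 to 4586 (4067150 to 4067268). All 7 were coding along their whole length and lay at least 10490 nt of spliced sequence upstream of the stop codon end. The first 6 belong to exons of 11 of the 16 coding transcripts, the last to exons of 14.

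unc-22, the gene of twitchin, held 1 coding interval in 22023 nt of coding sequence, 4.54 per 100000 nt (0.115 to 25.3), against 28.7 (11.5 to 59.2) in unc-89 and 25.3 (13.8 to 42.4) in ttn-1. These ranges count intervals as independent, although 5 of the 7 in unc-89 lie close together in 1 exon, and are therefore too narrow. A difference between the giant protein genes cannot be judged from them. Its interval encoded residues 6965 to 7007 of 7158, 97.6% of the way along the coding sequence and 456 nt of spliced sequence upstream of the stop codon end. It was the member interval nearest to the end of a coding sequence in relative terms. unc-27 had the shortest distance in nt.

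**Figure D3:**
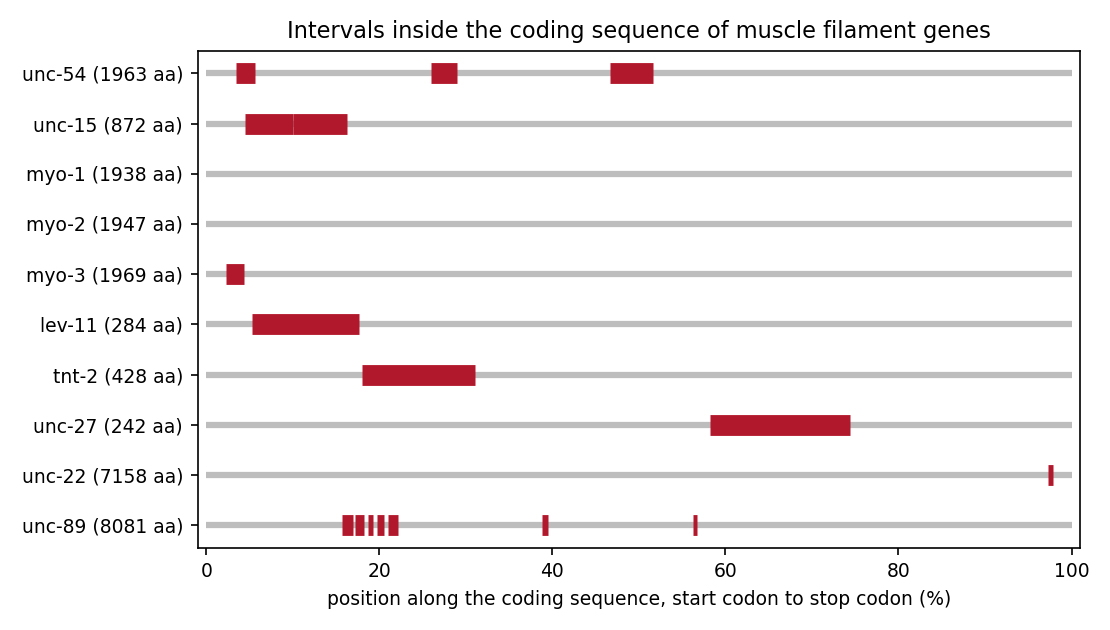
Coding intervals (red) along the coding sequence of each gene, drawn from start codon (0%) to stop codon (100%) and labelled with the length of the longest protein in amino acids (aa). In unc-54, unc-15, myo-3, lev-11 and tnt-2 the marks have their middle in the first 50%, the first 5 of the 7 marks of unc-89 are centred between 16.3 and 21.6%, and myo-1 and myo-2 have none.

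The members were also set among a wider list of muscle genes grouped by role. Of 77 symbols, 76 matched 1 gene each, and 41 of the 76 had a 3′ interval (53.9%, 42.1 to 65.5). Leaving out the 10 members, 32 of 66 had one (48.5%, 36 to 61.1). By role, 8 of 9 thick filament genes (88.9%, 51.8 to 99.7) and 15 of 19 thin filament genes (78.9%, 54.4 to 93.9) had one. These counts include 8 members, and without them they were 3 of 4 (75%, 19.4 to 99.4) and 12 of 16 (75%, 47.6 to 92.7). The thick filament gene without a 3′ interval was mlc-4, a light chain of non-muscle myosin. Genes of actin and myosin assembly, none of them a member, had 5 of 7 (71.4%, 29 to 96.3). Giant and M-line protein genes had 4 of 7 (57.1%, 18.4 to 90.1), or 3 of 5 without unc-22 and unc-89. The roles were not tested against each other. As the list was chosen with earlier results of these data known, its shares and ranges are not independent estimates. The count was 6 of 16 for dense body and attachment genes (37.5%, 15.2 to 64.6), which anchor thin filaments to the membrane. For channels, receptors and calcium handling it was 2 of 12 (16.7%, 2.09 to 48.4) and for muscle transcription factors 1 of 6. The shares of these last 3 roles and of the giant and M-line genes have intervals that include the 20.7% of all genes. So does the share of the thick filament genes once the members are left out (19.4 to 99.4).

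The relatives of the members differed among themselves. Of the other troponin T genes, mup-2 had a 3′ interval with 56 nt after the stop codon, the shortest of the thin filament genes, 172 nt before the annotated end. tnt-3 and tnt-4 had only a coding interval each, and of the 133 nt of the tnt-4 interval 27 nt were coding. All 3 other troponin I genes had a 3′ interval. That of tni-1 had the most sequence after the stop codon, 307 nt, and ended 33 nt past the annotated end. The edges of tni-3 (149 nt) and tni-4 (218 nt) lay 1 nt past and 2 nt before the annotated end, and tni-3 also had 2 coding intervals. Over the 4 troponin I genes, unc-27 included, 3 ends lay within 20 nt of the annotation, as did 61.5% of those of all genes, and 4 genes are too few to compare with that share. Of the myosin light chains, mlc-3 had 164 nt after the stop codon and ended 115 nt past the annotated end, and mlc-2 had 114 nt and ended 5 nt past it. The intervals of mlc-2 and tni-4 also covered the 3′ end of another gene, so an edge may belong to that gene's product. The interval of mlc-1 did not hold its stop codon, and mlc-4, a light chain of non-muscle myosin, had none. The actin genes act-1 and act-2 had 129 and 126 nt, ending 17 and 3 nt past the annotated end. The intervals of act-3 and act-4 held no stop codon, and since these actin genes are nearly identical in their coding sequence, how reads with several matches were placed could affect them.

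In the other roles, the longest and shortest were as follows. Among the giant and M-line genes unc-89 had the longest sequence after the stop codon and lim-9, a LIM domain protein of the M-line, the shortest, 125 nt, 676 nt before the annotated end. unc-45, the myosin chaperone, had 481 nt, the most of all listed genes, and sup-12, a muscle splicing factor, had 75 nt. Of the dense body genes, deb-1 (vinculin) had 474 nt and zyx-1 (zyxin) 78 nt. unc-68, the ryanodine receptor, had 275 nt and egl-19, a voltage-gated calcium channel, 162 nt, and the egl-19 interval ended 661 nt before the annotated end. The only transcription factor with a 3′ interval, ceh-22, which acts in the pharynx, had 135 nt. Over all listed genes with a comparable end, 19 of 36 lay more than 20 nt upstream, 15 within 20 nt and 2 more than 20 nt downstream, against 24.4%, 61.5% and 14% of all genes. Without the members these were 12, 13 and 2 of 27, and the median length after the stop codon was 171 nt.

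Coding intervals were also present in 10 listed genes that are not members, 24 in all, of which ttn-1 held 14. Those of ttn-1 spanned 6151159 to 6176850 of chromosome V, and each was coding along its whole length. The remaining 10 were in tni-3 (2) and, with 1 each, in tnt-3, tnt-4, lim-8, zyx-1, dim-1, unc-68, sca-1 and pha-4. In tnt-3 it was 332 nt long, the longest of these 10, and in unc-68 it encoded residues 256 to 335 of 5202.

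**Figure D4:**
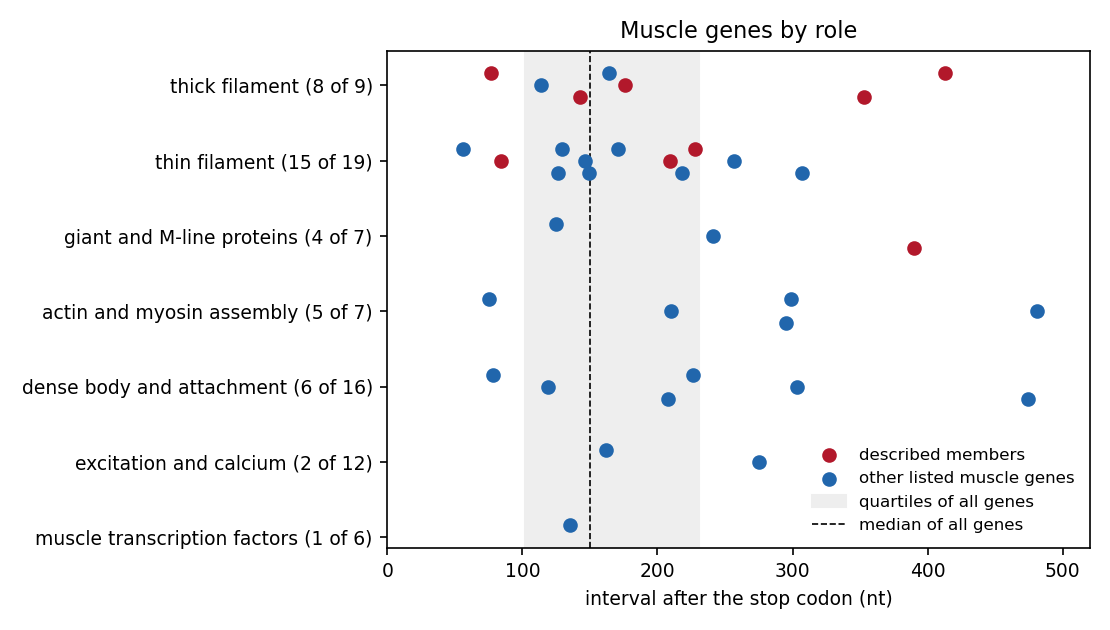
Length of the interval after the stop codon (nt) for listed muscle genes by role, with the 9 muscle filament genes in red and other listed genes in blue; the numbers beside each role are genes with a 3′ interval of genes listed, and genes whose interval holds no stop codon have no point. The grey band (102 to 231 nt) and dashed line (150 nt) are the quartiles and median of all genes, and the 9 span 77 to 413 nt, on both sides of the band.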

How the data were processed

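The authors deposited 1 list of intervals, with chromosome, start and end and no header. The deposited score column, which is 0 throughout, and the constant strand and name columns were not used. Per the labels' protocols it stems from oligo-dT primed cDNA, amplified with transcript-specific primers, cloned and pyrosequenced. The sources used here name no assembly method, aligner, filter or build. Its depth is unknown.

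The list was compared with Ensembl release 115 (WBcel235). In each 2 Mb window, by the file's positions, the shift within 6000 nt that put most interval bases on annotated stop codons and 3′ UTRs was applied. Over 52 windows it ranged from −13 to 120 nt, and was 4599 nt in the last of chromosome V. Such bases made up 42.5% to 75.3%. Where several intervals held a stop codon, the one reaching farthest after it was taken. Where a gene had several coding transcripts, residues refer to the one holding most of the interval, then the longest. Distances to annotated ends use transcripts with the same stop codon and a 3′ UTR. Lengths are genomic.

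The members and gene lists were chosen with earlier results of these data known. The classes of 3′ UTR length, the 5 and 10 nt distances to exon edges and the closing comparison without chromosome I for lengths after the stop codon were chosen after seeing the data. The text names all members, the extremes and relatives of members by role, and listed genes with coding intervals. The functions were tested on simulated intervals with a constant offset within each 2 Mb window. Edge errors from a shift that drifts within a window were therefore not covered. Python 3.11.15, numpy 2.4.6, scipy 1.17.1 and matplotlib 3.10.9 were used. Sequence motifs were not searched, since no genome sequence was used here.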

Additional observations from a re-analysis of the deposited data

How the results depend on the processing

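Windows of 1 and 3 Mb and a shift taken from the distances of interval edges to stop codons left 9 members with a 3′ interval, 17 coding intervals and 7 ends more than 20 nt upstream, and so did, where they apply, a minimum overlap of 1 or 50 nt and an end tolerance of 10 or 50 nt. With windows of 3 Mb 1 member, tnt-2, ended more than 20 nt downstream, and with windows of 1 Mb and the shift from stop codons 0 did, as reported; this count was compared after seeing the data. So were the edges at exon starts within 5 nt, which with these 3 settings numbered 4 to 6 of the 17 coding intervals and 2 to 4 of the 9 3′ intervals. With no shift the first 2 counts were again 9 and 17, and listed genes with a 3′ interval numbered 40, not 41. Leaving out the members on chromosome I moved the median interval length to 266 nt, from 377 nt with all, and the median length after the stop codon to 176 nt, from 209 nt. The members left out include those with the most sequence after the stop codon, unc-15 (413 nt), unc-89 (390 nt) and myo-1 (353 nt). Measured from the nearest end of any transcript, lev-11 turned from −251 nt to 84 nt downstream, because some of its models end at the stop codon, and 6 members ended upstream. No paired analysis was possible because only 1 of the 2 runs had a file here. Read depth is unknown, so the absence of an interval in unc-22 or of coding intervals in myo-1 and myo-2 does not show that such products were lacking. Values per gene rest on 1 interval each and have no replicate error.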
